A study of Mus musculus with 6 samples.

Results

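The glucocorticoid-induced genes and metallothioneins of bitten skin were examined as a set of 10 named genes: the glucocorticoid receptor gene Nr3c1, the cortisone reductase gene Hsd11b1, 6 genes that glucocorticoids are known to induce (Fkbp5, Tsc22d3, Zbtb16, Klf9, Sgk1 and Cdkn1a) and the metallothionein genes Mt1 and Mt2. They were found by gene symbol among the 15667 genes of the deposited table, and all 10 passed the filter on low values that left 14306 genes to test. RNA had been sequenced from ear skin of 6 female mice aged 7 to 8 weeks, on each of which 10 ticks (Ixodes scapularis) had fed for 48 h, and each library came from a single 3.5 mm punch taken at the bite site of a mouse. The 3 WT mice were Adipo+/+. Their 3 KO littermates were Adipo-/-, homozygous for the null allele tm1Chan of Adipoq, the gene of adiponectin, a hormone made by fat cells, on a mixed B6;129 background. The null allele is present in all cells of the animal from birth, and no unbitten skin was analysed here, so the comparison is of genotypes within bitten skin.

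Glucocorticoids such as corticosterone, the main one of the mouse, bind a receptor that waits in the cytoplasm in a complex with heat shock proteins and immunophilins, then enters the nucleus and binds DNA at paired half-sites. In skin they restrain inflammation and growth, and the enzyme encoded by Hsd11b1 makes the active hormone locally from its inert keto form. Metallothioneins are small cysteine-rich proteins that hold zinc and copper, and their genes are induced by metals, through the metal-responsive factor Mtf1, and by glucocorticoids.

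The implied depth was 4131246 to 6065337 reads in WT and 3403773 to 6591320 reads in KO libraries, at which 3 reads correspond to 0.455 to 0.881 CPM (reads of a gene scaled to the total of its library). Adipoq was at 30.5, 63.7 and 49.6 CPM in WT replicates 1, 2 and 3, and at 0, 0.561 and 0 CPM in the KO replicates. Markers of keratinocytes, the main cells of epidermis, summed to 36100 to 47750 CPM in WT and 41390 to 55210 CPM in KO libraries (14 of 15 listed markers in the table, 0 of them at 0 in every library). The libraries differed in hair follicle markers, whose 22 genes summed to 15.5 and 23.4 CPM in WT replicates 1 and 2, to 24730 CPM in WT replicate 3, and to 1944, 9784 and 1012 CPM in the KO replicates.

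Promoter sequences are shown for the metallothioneins and for Sgk1, because these hold the clearest matches to the DNA elements by which zinc and glucocorticoids act. The RefSeq windows (build GRCm38.p6) run from 250 bases before a transcription start to 50 bases after it. They were taken for 8 of the 10 genes, as 16 windows. Both strands were searched for the metal response core, written TGCACNC or TGCGCNC, and for the glucocorticoid palindrome, written as the half-sites GNACA and TGTNC with 3 bases between them, where N is any base. Below, capitals mark these matches, and each line reads 5′ to 3′ on the plus strand, the coding strand of all 3 genes. The windows are chr8:94178839-94179138 for Mt1, chr8:94172368-94172667 for Mt2 and chr10:21993640-21993939 for Sgk1, which has 6 windows, of which 1 holds the palindrome.
Mt1: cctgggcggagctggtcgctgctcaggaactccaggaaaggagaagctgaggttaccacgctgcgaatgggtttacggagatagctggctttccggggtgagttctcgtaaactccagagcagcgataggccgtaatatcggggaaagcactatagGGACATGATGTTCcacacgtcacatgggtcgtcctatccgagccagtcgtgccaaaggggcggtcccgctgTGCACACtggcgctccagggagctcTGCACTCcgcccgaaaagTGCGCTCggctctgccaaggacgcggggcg
Mt2: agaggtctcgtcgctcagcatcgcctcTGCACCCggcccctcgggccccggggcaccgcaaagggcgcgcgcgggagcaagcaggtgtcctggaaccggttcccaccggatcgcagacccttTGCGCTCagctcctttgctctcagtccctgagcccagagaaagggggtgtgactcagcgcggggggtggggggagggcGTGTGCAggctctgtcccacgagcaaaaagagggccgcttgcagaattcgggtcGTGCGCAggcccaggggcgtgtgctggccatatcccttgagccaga
Sgk1: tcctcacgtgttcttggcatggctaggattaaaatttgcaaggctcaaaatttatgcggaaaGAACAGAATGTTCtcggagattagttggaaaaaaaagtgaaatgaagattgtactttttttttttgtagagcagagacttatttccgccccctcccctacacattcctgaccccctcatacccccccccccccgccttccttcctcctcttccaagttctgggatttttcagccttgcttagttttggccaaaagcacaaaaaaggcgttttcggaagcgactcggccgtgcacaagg

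Mt1 held 3 metal cores, at -23 to -17, 3 to 9 and 21 to 27 from the start, and 1 glucocorticoid palindrome at -94 to -82. Mt2 held 4 metal cores, at -223 to -217, -128 to -122, -50 to -44 and 5 to 11, of which the last 2 lie on the minus strand, and 0 palindromes. In the Sgk1 window the palindrome lay at -188 to -176. Of 32817 windows in the mouse genome, 25.7% held at least 1 metal core, 1.97% held 3 or more, and 0.475% held the palindrome. Among the 16 windows, 4 held a metal core (1 each for Mt1, Mt2, Hsd11b1 and Sgk1) and 2 held the palindrome, while those of Fkbp5, Tsc22d3, Klf9 and Cdkn1a held 0 of either in these letters. A match is a description of the sequence and not a measured binding site. Sequence outside these windows was not searched, so the 0 matches do not show that a gene lacks such elements. No window of Nr3c1 or Zbtb16 was among those searched, so their promoters were not assessed. No other gene of the table overlapped the position of any of the 10 genes.

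**Figure D1:**
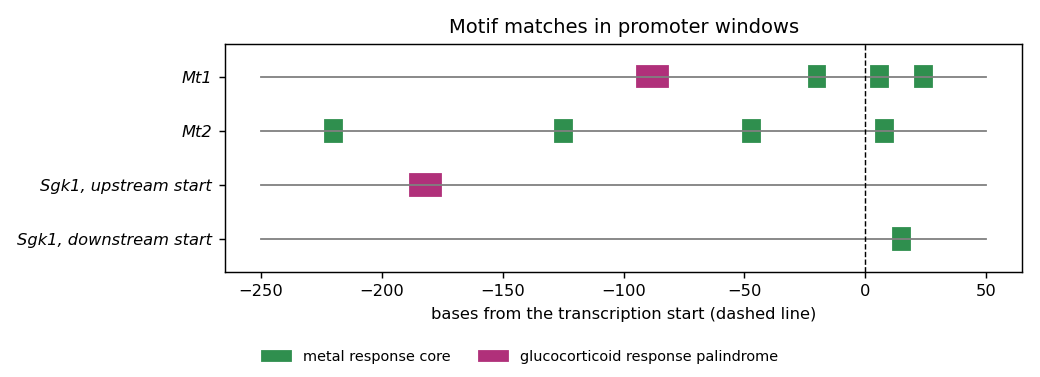
Matches to the metal response core (green) and the glucocorticoid palindrome (magenta) in promoter windows of Mt1, Mt2 and Sgk1, by distance in bases from the transcription start (dashed line). For Sgk1 the 2 windows with a match are drawn. Mt1 has 3 cores and 1 palindrome, Mt2 has 4 cores, and the single core of Hsd11b1 is not drawn.

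Adiponectin KO and WT skin were compared to ask whether these genes differ at the bite site when the host lacks adiponectin. The fitted difference was below 0 for all 10 genes, where 56.7% of all genes tested lay below 0. Their median log2 fold change (KO against WT, on the scale of CPM + 0.5, as for every fold change here) was -0.44, against -0.03 for all genes tested. The KO means of Hsd11b1, Zbtb16, Fkbp5 and Klf9 were 61.1%, 66.8%, 69.8% and 70.7% of the WT means, and that of Mt2, with a wider spread, was 66.2%. Nr3c1 and Sgk1 differed least, with KO means at 92.7% and 95.8% of WT. None of these differences passed the adjusted test: in limma, adjusted over all genes tested, 0 of the 10 genes had an adjusted p below 0.05 (0.998 for each), and 2 genes of the whole table did (0.014%), of which Adipoq is 1. At an unadjusted p below 0.05, 4 of the 10 (Hsd11b1, Zbtb16, Fkbp5 and Klf9) were lower in KO, against 1.82% of all genes tested, and 0 were higher, against 1.06%. limma voom on recovered reads gave the same counts of 0 and 4. In 2 of the 10, Zbtb16 and Hsd11b1, all KO values lay below all WT values, as they did for 4.89% of all genes. The count of 4 was 1 when WT replicate 2 was left out (1.03% of all genes lower) and 1 when KO replicate 1 was left out (1.41%), where the gene was Mt2 and none of the 4 remained. It was 1 without the mean-variance trend of limma (2.26%) and 0 with an adipocyte marker score as a covariate (2.1%). With a skeletal muscle marker score it was 3 (2.91%), of which Fkbp5 alone was among the 4, beside Mt1 and Mt2. In bulk skin, fewer cells of a type and less RNA of a gene per cell cannot be told apart.

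**Figure D2:**
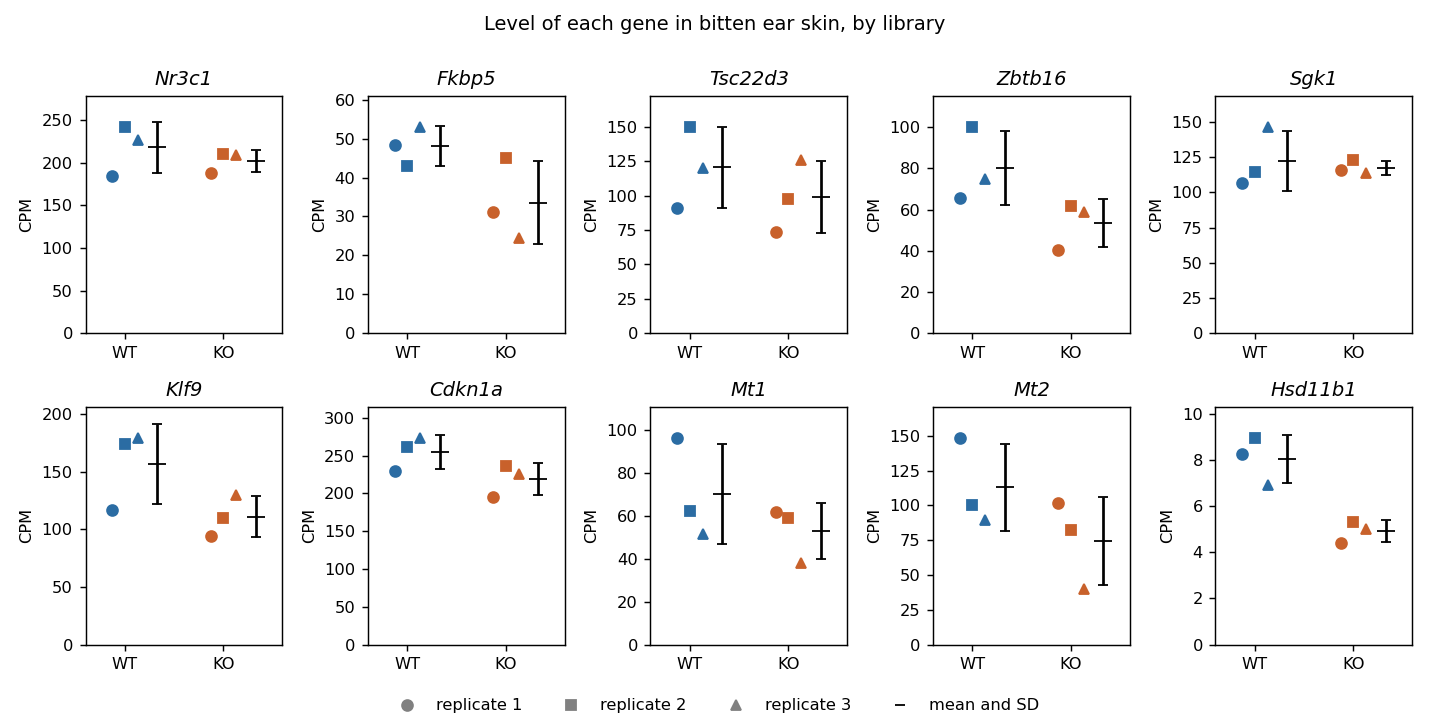
Level of each of the 10 genes in CPM (linear axis from 0) in the 3 WT (blue) and 3 KO (orange) libraries, with the mean and SD beside them; circles, squares and triangles are replicates 1, 2 and 3. The WT and KO points are apart for Zbtb16 and Hsd11b1 and overlap for the other 8 genes.

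Nr3c1 encodes the glucocorticoid receptor itself (chromosome 18, 39410545 to 39519421, minus strand). WT replicates 1, 2 and 3 held 184, 243 and 227 CPM of it, and KO replicates 1, 2 and 3 held 188, 209.9 and 209 CPM. All 3 KO values lay inside the WT range, which WT replicate 1 bounded from below. The WT mean was 218 ± 30.2 CPM and the KO mean 202 ± 12.6 CPM (SD, n = 3 each). The log2 fold change was -0.10 (SE 0.13, 95% interval -0.39 to 0.19, unadjusted p = 0.443). Leaving out WT replicate 2 gave -0.02, leaving out KO replicate 1 gave -0.05, leaving out WT replicate 3 gave -0.07, and leaving out WT replicate 1 gave -0.22. At its lower bound the interval allows a fall of 0.39 on the log2 scale, so a small difference in receptor mRNA was not detectable with this spread.

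Hsd11b1 encodes the reductase that regenerates active glucocorticoid inside cells, and fat cells and fibroblasts are known sources of it (chromosome 1, 193221641 to 193264045, minus strand). It was the lowest of the 10 genes, with 8.23, 8.95 and 6.92 CPM in the WT libraries against 4.40, 5.32 and 4.995 CPM in those of KO. These values rest on 34, 44 and 42 reads in WT and 29, 19 and 17 reads in KO. Every KO value was below every WT value. The means were 8.03 ± 1.03 CPM and 4.91 ± 0.469 CPM (SD, n = 3 each), and the log2 fold change was -0.66 (SE 0.23, 95% interval -1.18 to -0.13, unadjusted p = 0.0213, adjusted p = 0.998, limma). With any 1 library left out the fold change was -0.75 to -0.58, but the unadjusted p was above 0.05 without WT replicate 1 (unadjusted p = 0.055, limma), WT replicate 2 (unadjusted p = 0.0752) or KO replicate 1 (unadjusted p = 0.06).

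Fkbp5 encodes an immunophilin that sits in the receptor complex and lowers its affinity for hormone, so that its induction forms a feedback loop (chromosome 17, 28398753 to 28486149, minus strand). The WT libraries held 48.4, 42.9 and 53.1 CPM, against 31.2, 45.1 and 24.4 CPM in the KO libraries. KO replicates 1 and 3 lay below all WT libraries, and KO replicate 2 lay inside their range. The means were 48.1 ± 5.09 CPM and 33.6 ± 10.6 CPM (SD, n = 3 each). The log2 fold change was -0.55 (SE 0.22, 95% interval -1.06 to -0.04, unadjusted p = 0.0375, limma), with -0.35 when KO replicate 3 and -0.79 when KO replicate 2 was left out. The unadjusted p of Fkbp5 was above 0.05 without WT replicate 1 (unadjusted p = 0.0775), WT replicate 3 (unadjusted p = 0.0834), KO replicate 1 (unadjusted p = 0.0892) or KO replicate 3 (unadjusted p = 0.126).

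Zbtb16 encodes PLZF, a zinc finger repressor that is strongly glucocorticoid-responsive in many cell types (chromosome 9, 48651797 to 48836225, minus strand). WT values were 65.8, 100.3 and 74.7 CPM, and KO values were 40.2, 61.9 and 58.8 CPM. The groups did not overlap, although the highest KO value was close to the lowest WT value. The means were 80.3 ± 17.9 CPM and 53.6 ± 11.7 CPM (SD, n = 3 each), with a log2 fold change of -0.58 (SE 0.21, 95% interval -1.07 to -0.09, unadjusted p = 0.0263, limma). That p was above 0.05 without WT replicate 2 (fold change -0.41, unadjusted p = 0.0992) or KO replicate 1 (-0.39, unadjusted p = 0.0868).

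Klf9 encodes a Krüppel-like repressor that takes part in the glucocorticoid response of keratinocytes (chromosome 19, 23141226 to 23168128, plus strand). The WT values were 117, 175 and 179.7 CPM, against KO values of 94.1, 109.8 and 129.6 CPM. KO replicates 1 and 2 were below all WT libraries, while KO replicate 3 was above WT replicate 1. The means were 157 ± 34.9 CPM and 111 ± 17.8 CPM (SD, n = 3 each), and the log2 fold change was -0.48 (SE 0.19, 95% interval -0.93 to -0.04, unadjusted p = 0.0366, limma). With 1 library left out it was -0.68 to -0.37, and the unadjusted p was above 0.05 without WT replicate 2 (unadjusted p = 0.121), WT replicate 3 (unadjusted p = 0.0936), KO replicate 1 (unadjusted p = 0.123) or KO replicate 2 (unadjusted p = 0.0778).

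Tsc22d3 encodes GILZ, a leucine zipper protein that carries part of the anti-inflammatory action of glucocorticoids (chromosome X, 140539529 to 140600522, minus strand). Although it is a classical target, its groups overlapped widely, with WT values of 91.2, 150.1 and 120.0 CPM against KO values of 73.4, 97.8 and 125 CPM. KO replicate 1 alone was below all WT libraries. The means were 121 ± 29.4 CPM and 98.9 ± 26.0 CPM (SD, n = 3 each), and the log2 fold change of -0.29 (SE 0.23, 95% interval -0.83 to 0.25, unadjusted p = 0.255) was within the spread between replicates. Leaving out KO replicate 1 gave -0.09, leaving out WT replicate 2 gave -0.12, and leaving out KO replicate 3 gave -0.48.

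Sgk1, which encodes a kinase of salt and survival signalling (chromosome 10, 21882184 to 21999902, plus strand), had WT values of 106, 114 and 147 CPM and KO values of 115, 123.0 and 113 CPM. The KO values all lay inside the WT range, and only WT replicate 3 was above all KO libraries. The means were 122 ± 21.3 CPM and 117 ± 5.07 CPM (SD, n = 3 each). The log2 fold change was -0.05 (SE 0.14, 95% interval -0.36 to 0.27, unadjusted p = 0.732), and its sign turned to 0.09 when WT replicate 3 was left out, within a range of -0.14 to 0.09 over the libraries left out in turn. Cdkn1a encodes the cell cycle inhibitor p21, which p53 induces as well as glucocorticoids (chromosome 17, 29090979 to 29100722, plus strand). The WT libraries held 230.2, 262 and 274 CPM, and the KO libraries 195, 236 and 225 CPM. Only KO replicate 2 reached the WT range. The means were 255 ± 22.4 CPM and 219 ± 20.9 CPM (SD, n = 3 each), and the log2 fold change of -0.22 (SE 0.11, 95% interval -0.49 to 0.04, unadjusted p = 0.0894) did not pass the test. It was -0.14 without KO replicate 1, and -0.29 without WT replicate 1 (unadjusted p = 0.0403, limma).

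Mt1 and Mt2 lie next to each other on the plus strand of chromosome 8, Mt2 at 94172618 to 94173567 and Mt1 at 94179089 to 94180327, with 5521 bases between them. WT replicates 1, 2 and 3 held 96.3, 62.5 and 51.6 CPM of Mt1, against 61.8, 58.9 and 37.9 CPM in the KO replicates. Values of Mt2 were higher, with 149, 100.1 and 89.9 CPM in the WT and 102, 82.1 and 40.0 CPM in the KO replicates. Both were highest in WT replicate 1 and lowest in KO replicate 3, and the groups overlapped for both. The means of Mt1 were 70.1 ± 23.3 CPM and 52.8 ± 13.0 CPM (SD, n = 3 each), with a log2 fold change of -0.39 (SE 0.27, 95% interval -1.0025 to 0.23, unadjusted p = 0.183). Those of Mt2 were 113 ± 31.4 CPM and 74.7 ± 31.7 CPM, with a log2 fold change of -0.66 (SE 0.34, 95% interval -1.45 to 0.13, unadjusted p = 0.0896). The fitted difference of Mt2 was thus as large as that of Hsd11b1, but with a wider spread between replicates. The difference of Mt2 was -0.27 and that of Mt1 -0.17 when KO replicate 3 was left out, and that of Mt1 was -0.14 without WT replicate 1. Without WT replicate 3 it was -0.58 for Mt1 (unadjusted p = 0.0478, limma) and -0.81 for Mt2 (unadjusted p = 0.0498), and without KO replicate 1 it was -0.94 for Mt2 (unadjusted p = 0.0286).

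The share of the metallothionein pair that was Mt2 also varied by library. Mt2 had 1.54, 1.6 and 1.74 times as many recovered reads as Mt1 in WT replicates 1, 2 and 3, and 1.65, 1.4 and 1.05 times as many in the KO replicates. In KO replicate 3, with 136 reads of Mt2 and 129 of Mt1, the 95% interval of the ratio was 0.822 to 1.35, below the intervals of all 3 WT libraries, of which the lowest began at 1.36. These intervals cover counting error only. Since the transcripts are similar in sequence and the quantification can divide a read between genes, the split of reads between Mt1 and Mt2 is uncertain, whereas their sum does not rest on that split. The WT sums were 245, 162.5 and 141.5 CPM, and the KO sums 163.7, 141 and 77.9 CPM, so that KO replicate 3 stood lowest in the sum too.

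**Figure D3:**
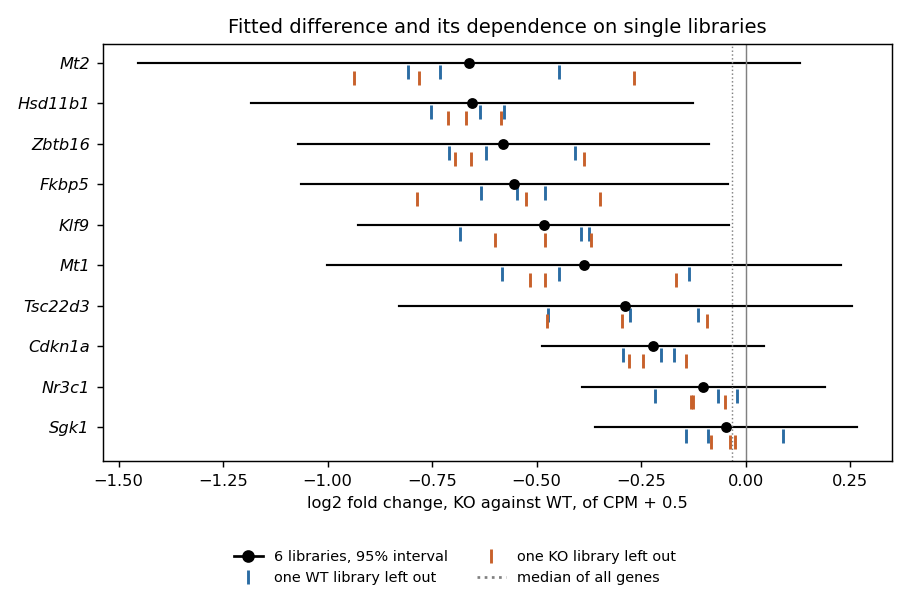
Fitted log2 fold change (KO against WT, on CPM + 0.5) of each gene with its 95% interval (black), and the fold change with each WT library (blue ticks) or each KO library (orange ticks) left out in turn; the dotted line is the median of all genes tested (-0.03). The intervals of Hsd11b1, Zbtb16, Fkbp5 and Klf9 lie below 0, and the Mt2 ticks spread from -0.94 to -0.27.

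Levels between genes were compared per kilobase of the principal transcript. In WT skin the order was Mt2 (221 CPM per kb), Mt1 (128), Cdkn1a (122.6), Tsc22d3 (61.0), Sgk1 (49.8), Klf9 (35.0), Nr3c1 (33.9), Zbtb16 (15.7), Fkbp5 (12.5) and Hsd11b1 (4.95), all as means in CPM per kb. The neighbours Mt1 and Cdkn1a, Tsc22d3 and Sgk1, Klf9 and Nr3c1, and Zbtb16 and Fkbp5 had overlapping WT ranges and were not separated. Mt2 was above Mt1 in all 6 libraries, although the ranges of the 2 genes overlapped among KO libraries. The most variable gene was Mt2, whose highest library was 3.72 times its lowest in CPM, and the least variable was Nr3c1, at 1.32 times.

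The genes did not share 1 pattern over the libraries. WT replicate 1 was highest for Mt1 and Mt2. WT replicate 2 was highest for Nr3c1, Tsc22d3, Zbtb16 and Hsd11b1, and WT replicate 3 for Fkbp5, Sgk1, Klf9 and Cdkn1a. KO replicate 1 was lowest for Tsc22d3, Zbtb16, Klf9, Cdkn1a and Hsd11b1, and KO replicate 3 for Fkbp5, Mt1 and Mt2. WT replicate 1 was lowest for Nr3c1 and Sgk1.

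**Figure D4:**
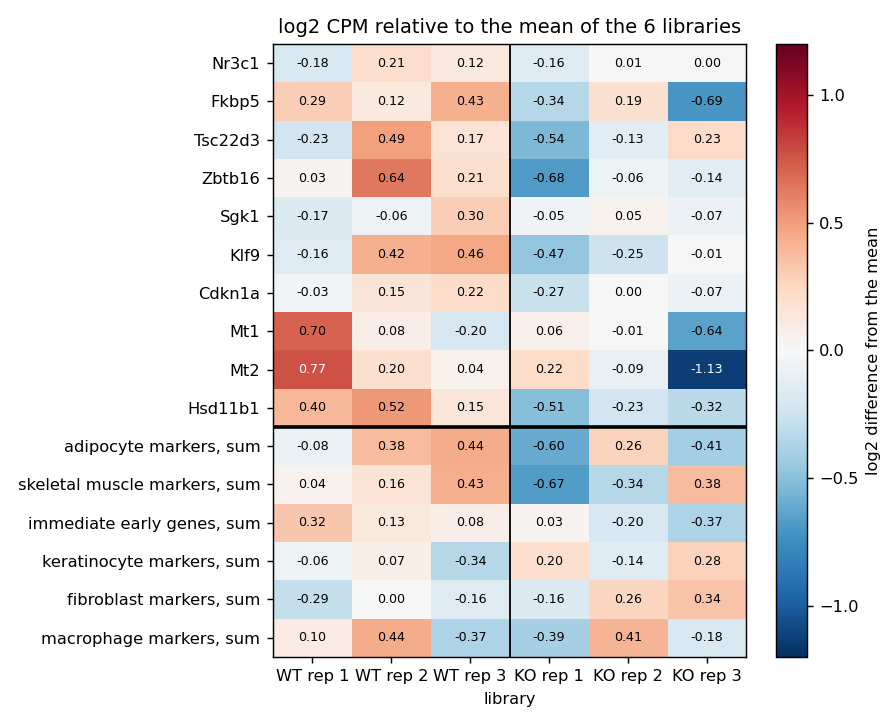
log2 CPM of each gene in each library relative to the mean of the 6 libraries (colour and number), with summed markers of cell types and immediate early genes under the thick line in the same scale. Mt1 and Mt2 are highest in WT replicate 1 and lowest in KO replicate 3, while Zbtb16, Klf9 and Tsc22d3 are lowest in KO replicate 1, as are the adipocyte and skeletal muscle sums.

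Markers of other tissues and cells in the punch moved with part of this pattern. Their counts are to be read beside the 56.7% of all genes tested that were lower in KO. Adipocyte markers gave sums of 1238, 1707 and 1779 CPM in the WT and of 863, 1571 and 984 CPM in the KO replicates, with 19 of 20 markers lower in KO and 0 of them at 0 in every library. Skeletal muscle markers, from the thin muscle of the ear, summed to 14900 to 19500 CPM in WT and 9099 to 18750 CPM in KO libraries, with 24 of 24 lower and 0 at 0. Fibroblast markers summed to 6750 to 8258 CPM and 7367 to 10450 CPM (5 of 15 lower), and macrophage markers to 827 to 1455 CPM and 815 to 1423 CPM (10 of 15 lower). Endothelial markers (12 of 15 lower, 0 at 0) summed to 291.5 to 311 CPM in WT libraries and to 187.8, 308 and 296 CPM in KO replicates 1, 2 and 3, so that KO replicate 1 was lowest here too. Neutrophil markers (6 of 10 tested lower, 0 at 0) summed to 93.5 to 649 CPM in the WT libraries and to 137 to 244 CPM in the KO libraries, with the highest sum in WT replicate 1, where Mt1 and Mt2 were highest. With the adipocyte score (the mean log2 level of these markers in a library) as a covariate, the log2 fold change was -0.25 for Fkbp5, -0.24 for Zbtb16, -0.24 for Klf9, -0.02 for Tsc22d3 and -0.04 for Cdkn1a, but -0.59 for Hsd11b1, -0.59 for Mt1 and -0.86 for Mt2. With the skeletal muscle score it was 0.06 for Tsc22d3, -0.21 for Klf9 and -0.41 for Zbtb16, but -0.79 for Fkbp5, -0.84 for Mt1 and -1.34 for Mt2, the last at an unadjusted p of 4.03e-05 (adjusted p = 0.192, limma). The part of these tissues and cells in the result was not tested.

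Genes that work with the receptor, or answer to it, were then counted in lists. The lists here and below were chosen with earlier results of these data known. Their counts are therefore descriptions and not an independent check of the set. Dusp1 and Zfp36 stand in both the glucocorticoid-induced list and that of immediate early genes, so these lists are not separate either. Of all genes tested, 56.7% were lower in KO, and 1.82% were lower at an unadjusted p below 0.05 (limma). Of 15 tested chaperones and coregulators of the receptor, 13 were lower in KO and the median log2 fold change was -0.11. Nrip1, a corepressor of nuclear receptors, reached an unadjusted p below 0.05, with WT values of 166, 190.0 and 163 CPM and KO values of 124, 154 and 129 CPM (log2 fold change -0.35, SE 0.12, unadjusted p = 0.0186). The next was the immunophilin gene Ppid (log2 fold change -0.28, unadjusted p = 0.127). Of 26 other glucocorticoid-induced genes, 23 were lower, 5 of them at an unadjusted p below 0.05, 0 were higher at that level and 0 passed the adjusted test (limma). The median of these 26 was -0.31, in a range of -1.02 to 0.82, and 3 of them were higher in KO. Rgs2, a regulator of G protein signalling, had WT values of 28.1, 26.7 and 28.2 CPM and KO values of 20.2, 19.9 and 14.1 CPM, which did not overlap (log2 fold change -0.62, SE 0.18, unadjusted p = 0.00856). Irs2, an insulin receptor adaptor, also had all KO values below all WT values (means 59.5 ± 8.43 and 42.8 ± 4.22 CPM, SD, log2 fold change -0.46). Such a separation was seen in 2 of the 26 genes, against 4.89% of all genes tested. The other 3 were the clock gene Per1 (-0.38), the NF-kappaB inhibitor gene Nfkbia (-0.57) and the MAP kinase phosphatase gene Dusp1 (-1.02), whose groups overlapped.

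Zinc transporters and other metallothioneins did not share the direction of Mt1 and Mt2 as a group. Of 20 tested, 11 were lower and 9 higher, where 56.7% of all genes tested were lower. The median was -0.01, and 0 reached an unadjusted p below 0.05 in either direction. The smallest p-values were those of the zinc importer genes Slc39a13 (log2 fold change -0.43, unadjusted p = 0.077) and Slc39a2 (0.68, unadjusted p = 0.0807), which differed in sign. Mtf1, which encodes the zinc sensor named above and was chosen after its values were seen, had a WT mean of 41.8 CPM and a KO mean of 36.9 CPM (log2 fold change -0.17, unadjusted p = 0.309). Mt4, the metallothionein of stratified epithelium, likewise chosen after its values were seen, had means of 33.0 and 41.8 CPM (log2 fold change 0.46, unadjusted p = 0.2).

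Lists of the other inputs to these genes were counted as well, where 56.7% of all genes tested were lower in KO. Of 21 listed genes of steroid synthesis and the stress hormone axis, 14 were in the table and 12 were tested. These 12 were genes of steroid synthesis, conversion and transport, so the stress hormone axis itself was not assessed. Of the 12, 6 were lower in KO (median 0.03), with 0 at an unadjusted p below 0.05. The smallest p-values were those of Srd5a1, a steroid reductase gene (0.27, unadjusted p = 0.0818), and Stard3, of cholesterol transport (-0.31, unadjusted p = 0.113). Among 18 p53 target genes, of interest for Cdkn1a, 13 were lower (median -0.19) and 0 reached that level, with Plk2 (-0.53, unadjusted p = 0.0522) and Phlda3 (-0.27, unadjusted p = 0.0752) nearest to it. Clock genes, which glucocorticoids help to set, were lower in 9 of 19 (median 0.02). Of these, Per1 was lower (-0.38, unadjusted p = 0.0212), and Per3 was higher, with WT values of 47.9, 50.7 and 49.6 CPM and KO values of 55.7, 58.3 and 71.4 CPM (0.31, unadjusted p = 0.042).

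Immediate early genes, transcribed soon after a stimulus, were the list among these whose median lay nearest to that of the 10 genes. Of 25 tested, 24 were lower in KO (56.7% of all genes tested), 8 of them at an unadjusted p below 0.05 (1.82%), and the median was -0.43. Their summed level was 2987 to 3532 CPM in WT and 2186 to 2889 CPM in KO libraries, which did not overlap, and it was highest in WT replicate 1 and lowest in KO replicate 3, the same libraries as for Mt1 and Mt2. The 8 genes were Nr4a1 (log2 fold change -0.76, unadjusted p = 0.00209), Klf2 (-0.67), Klf6 (-0.43), Egr1 (-0.76), Fos (-1.79), Fosb (-0.85), Atf3 (-0.49) and Dusp1 (-1.02). Dusp1 stands in the glucocorticoid-induced list too, as 2 genes are shared between these lists, and Fosb was named by the study from these same libraries. The part of these genes in the result for Mt1 and Mt2 was not tested. Low medians were not confined to these lists: skeletal muscle markers had -0.51 and adipocyte markers -0.67. Of these markers, 6 of 24 and 7 of 20 were lower at an unadjusted p below 0.05 (limma), against 1.82% of all genes tested. The medians of endothelial, neutrophil and macrophage markers were -0.19, -0.34 and -0.10. Those of hair follicle, fibroblast and keratinocyte markers were 2.51, 0.23 and 0.07.

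**Figure D5:**
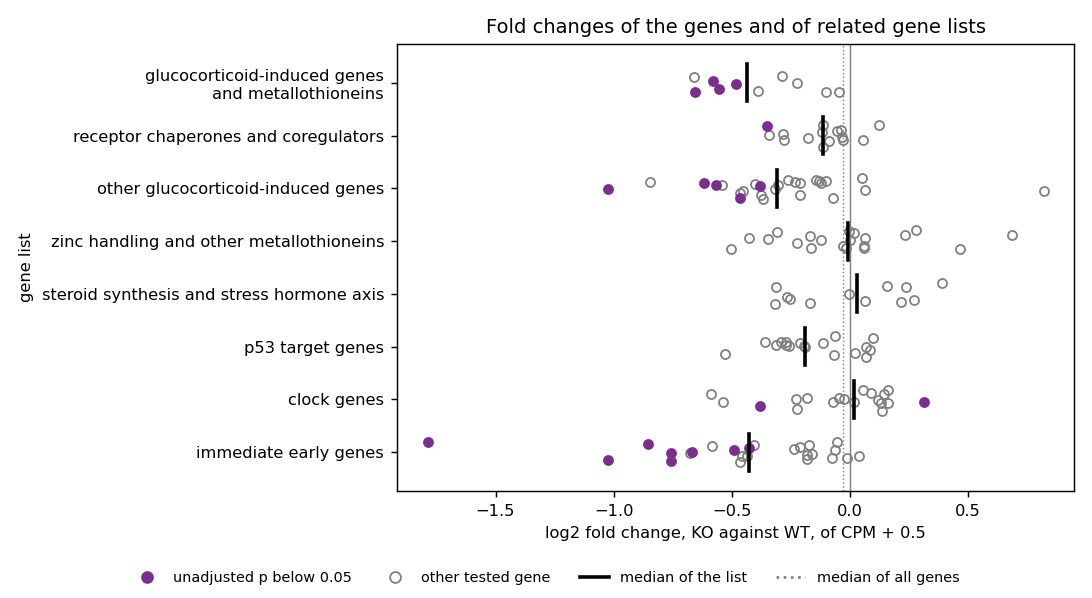
Log2 fold change (KO against WT, on CPM + 0.5) of every tested gene in the set of 10 and in 7 related lists; filled points are genes at an unadjusted p below 0.05, bars are list medians and the dotted line is the median of all genes tested. The medians of the 10 genes (-0.44), the other glucocorticoid-induced genes (-0.31) and the immediate early genes (-0.43) lie left of the dotted line. So do those of the p53 targets (-0.19) and of the receptor chaperones and coregulators (-0.11). Those of the zinc (-0.01), steroid (0.03) and clock (0.02) lists lie right of it. Lists of cell type markers are not drawn.

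Finally, the genes whose level ran most like that of Fkbp5 or Mt2 over the 6 libraries were listed from the 11685 other genes whose mean reached 5 CPM, as a description. For Fkbp5 these included Ccs, the copper chaperone of superoxide dismutase (r = 0.991), and Ubfd1 (r = 0.982). The WT values of Ccs were 15.3, 13.2 and 16.0 CPM and its KO values 11.5, 14.6 and 9.40 CPM. For Mt2 they were Tcof1, of ribosomal RNA synthesis (r = 0.993), the histone acetyltransferase gene Kat7 (r = 0.991) and the thioredoxin-like gene Txnl1 (r = 0.986). Tcof1 had WT values of 58.8, 50.7 and 48.6 CPM and KO values of 49.2, 47.9 and 35.0 CPM. Mt1 had r = 0.940 with Mt2 and stood at place 78. Among the other genes of the set, Fkbp5 was nearest to Mt2 (r = 0.714), and Tsc22d3 was farthest (r = -0.382). Each r rests on 6 libraries, which also differ in depth and genotype.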

How the data were processed

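RNA-seq libraries of bitten ear skin from 3 WT and 3 KO mice were analysed, grouped by the genotype in their labels. Reads were trimmed by the authors, mapped to mm10 with STAR 2.7.3a and quantified over transcripts, named as Ensembl, by expectation-maximization in Partek Flow, so that a read can be divided among genes, and values were scaled by the library total. The deposited values are CPM with an offset of 0.0001, which was subtracted. Use of read strand and the model for skin are not given in the sources used here. Positions are those of the deposited table. The methods name the Ensembl transcripts, but 64.3% of 15580 matched genes have the RefSeq start in the table, so the annotation used was not settled.

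Depth was recovered from the step between low values; 91.6% to 92.9% of low values lay within 0.1 of a whole read, so recovered reads are estimates and no count model served as the test. The genotypes were compared in limma 3.58.1 (R 4.3.3; mean-variance trend, two-sided) on log2(CPM + 0.5) for the 14306 genes whose mean reached 1 CPM, with Benjamini-Hochberg adjustment over all of them. Fold changes on this scale understate those of low genes. Unadjusted p-values are given for description, and an exact permutation test of 3 against 3 cannot go below 0.1. The limma fit was tried on simulated libraries in which every gene had the same spread beyond counting error and tissue content did not vary. It therefore does not show how the fit performs at the spread of these libraries. The 20 alternatives covered pseudocount, filter, scaling, model, marker covariates, replicate block and leaving out each library.

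The 10 genes and all lists were chosen with earlier results of these data known. Named beside the 10 genes were, from each list of pathway genes (not the cell type markers), those at an unadjusted p below 0.05 and the 2 with the smallest p, and the 3 genes most like Fkbp5 and Mt2, of which 1 is not reported here. Mtf1 and Mt4 were named outside this rule. Transcript lengths were from GENCODE M21 and promoters from RefSeq.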

Additional observations from a re-analysis of the deposited data

How the results depend on the processing

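Under the 20 alternatives, 195 of the 200 single-gene fold changes stayed below 0 and 0 passed the adjusted test. The 5 that turned were Nr3c1 (0.0665) and Sgk1 (0.11) with the adipocyte covariate, Tsc22d3 (0.0593) and Sgk1 (0.0003) with the skeletal muscle covariate, and Sgk1 (0.0885) without WT replicate 3, where leaving out 1 library gave -0.1426 to 0.0885. The count of 4 genes lower at an unadjusted p below 0.05 was 1 without the mean-variance trend (Hsd11b1, against 2.26% of all genes lower), 0 with the adipocyte covariate (2.1%), and 1 to 4 with 1 library left out: without WT replicate 2 it was Fkbp5 (1.03%), and without KO replicate 1 it was Mt2 (1.41%), which was not among the 4. With the skeletal muscle covariate it was 3 (2.91%), and the genes were Fkbp5, Mt1 and Mt2. With the hair follicle covariate it was also 3 (3.95%), without Hsd11b1 (unadjusted p = 0.0604, limma). The count of 2 genes with groups apart became 3 to 5 with 1 library left out, 5 without WT replicate 1 (13.0% of all genes) and 4 without KO replicate 2 (12.0%), as fewer values need to be ordered. The median of -0.44 was -0.31 with the skeletal muscle covariate, -0.24 with the adipocyte covariate, and -0.48 to -0.31 with 1 library left out. The cause of the covariate and trend differences was not tested.

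All 10 genes stayed below 0 under each rescaling, but the direction of calls over all genes did not hold: genes lower in KO made up 63.1% of those at an unadjusted p below 0.05, 50.6% after median-of-ratios rescaling and 45.4% after quantile normalization. Fitting the replicate number as a replicate block gave 6 of the 10 genes lower at an unadjusted p below 0.05, against 2.89% of all genes, and 0 past the adjusted test: Fkbp5 was no longer among them (unadjusted p = 0.054, limma), and Cdkn1a, Mt1 and Mt2 were. The labels do not say whether the numbers pair the libraries. Same-numbered WT and KO libraries had correlations of their deviations of 0.376, -0.306 and -0.222, and not every library was most like its own number. These correlations cannot exclude a pairing, because the libraries also differ in hair follicle and other tissue content. Depth limits Hsd11b1 most, with 17 to 44 reads a library.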
